A study of Mus musculus with 4 samples.

Results

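The genes described here encode calcium release channels of the endoplasmic reticulum, the STIM and ORAI proteins that let calcium into the cell, and NFAT transcription factors. They are Itpr1, Itpr2, Itpr3, Ryr2, Stim1, Stim2, Orai1, Orai2, Nfatc1 and Nfatc2, chosen by symbol as 10 of the 24411 genes listed for every library. RNA was sequenced from B220-positive B cells, sorted by flow cytometry from the marrow of mouse tibiae and femurs. There were 2 libraries labelled Arid5b overexpression and 2 labelled wildtype, with 1 genotype label misspelt and read as wildtype. The labels give no strain, age or sex, no promoter or construct behind the overexpression, and no statement of whether a library is 1 mouse or a pool. The p-values below therefore rest only on a spread between these libraries. Where a single overexpression-labelled library is compared, that spread comes from the wildtype pair and is drawn toward a trend over all genes tested.

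In a B cell, antigen receptor signalling activates phospholipase C, which releases inositol trisphosphate. Inositol trisphosphate opens the receptors encoded by Itpr1, Itpr2 and Itpr3, and calcium leaves the endoplasmic reticulum. STIM proteins in that membrane sense the emptied store and open ORAI channels in the plasma membrane. The calcium that enters activates calmodulin and the phosphatase calcineurin, which dephosphorylates NFAT factors and lets them enter the nucleus.

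Gene-assigned reads numbered 15281839 and 20356404 for overexpression-labelled libraries 1 and 2, and 20146878 and 14196665 for the wildtype libraries. The single entry Rn45s took 30.52% and 28.31% of them in the overexpression-labelled libraries, against 30.18% and 25.69% in the wildtype libraries. Levels given below relative to all reads of a library keep Rn45s in the total. Arid5b itself had 58127 and 2770 reads in the overexpression-labelled libraries, against 2993 and 2465 reads in the wildtype libraries, so it was raised in 1 of the 2 libraries that carry the overexpression label. Each overexpression-labelled library was for that reason also compared singly with both wildtype libraries, and below, library 1 and library 2 without a group name mean these 2. Across the tested genes, overexpression-labelled library 1 correlated with the other 3 libraries at a Pearson r of 0.786 to 0.792, while those 3 correlated with each other at 0.964 to 0.982. The B cell markers, all 8 of them detected in every library, summed to 3285 and 5749 CPM in the overexpression-labelled libraries, against 5128 and 5816 CPM in the wildtype libraries, where CPM sets reads relative to all reads of a library. Xist had 24 reads in wildtype library 1 and 68540 to 132008 reads in the other 3 libraries.

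The 10 genes spanned a wide range of levels, with Nfatc1 at the top and Ryr2 at the bottom in wildtype B cells. Levels between genes are compared as RPKM, which is CPM divided by the kilobases of annotated exon. In the wildtype libraries Nfatc1 averaged 71.1 ± 7.64 RPKM, Itpr2 25.3 ± 4.24, Orai1 19.3 ± 1.8, Itpr3 15.7 ± 1.66 and Itpr1 13 ± 0.906 RPKM (SD, n = 2 for each). Below them stood Stim2 at 4.8 ± 0.501 RPKM, Nfatc2 at 3.67 ± 0.698, Stim1 at 2.5 ± 0.0567, Orai2 at 1.81 ± 0.18 and Ryr2 at 0.361 ± 0.0125 RPKM (SD, n = 2 for each). Both wildtype libraries gave the same order. The mean ± SD ranges of Itpr2 and Orai1 meet, as do those of Stim2 and Nfatc2, so the order within each of these pairs is not separated by the spread.

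**Figure D1:**
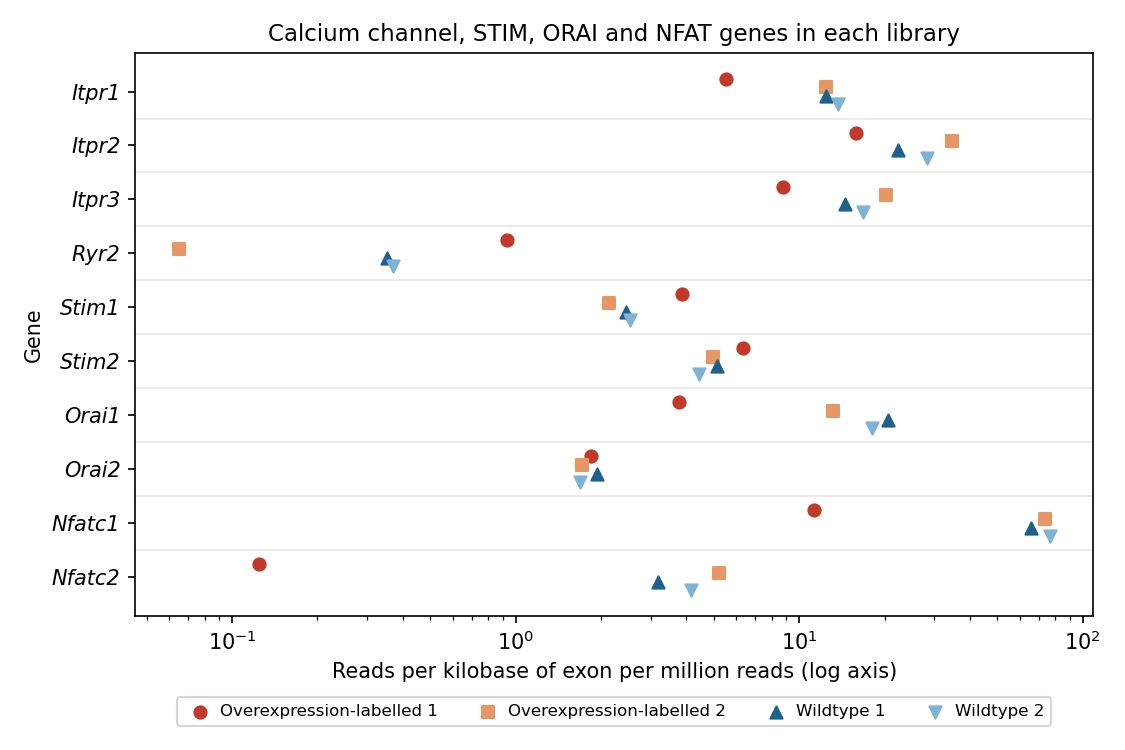
RPKM on a log axis for each of the 10 genes, with 1 point per library: 2 overexpression-labelled and 2 wildtype libraries. Overexpression-labelled library 1 stands at 0.124 RPKM for Nfatc2 and 11.3 RPKM for Nfatc1, far left of the other 3 libraries, while for Ryr2 the library on the far left is overexpression-labelled library 2, at 0.0648 RPKM.

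Overexpression-labelled library 1 had another order. Itpr2 led with 15.9 RPKM and Nfatc1 followed with 11.3 RPKM. Nfatc2 stood last with 0.124 RPKM, below Ryr2 with 0.934 RPKM, and Orai1 stood seventh with 3.76 RPKM. Overexpression-labelled library 2 had Nfatc1 first with 73.8 RPKM, Itpr2 next with 34.5 RPKM and Ryr2 last with 0.0648 RPKM, as in wildtype. It differed from the wildtype order in that Itpr3 (20.3 RPKM) stood above Orai1 (13.2 RPKM), and Nfatc2 (5.21 RPKM) above Stim2 (4.97 RPKM).

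The comparison that the labels state sets both overexpression-labelled libraries against both wildtype libraries. As Arid5b was raised in only 1 of the 2 overexpression-labelled libraries, this comparison cannot answer what raised Arid5b does to gene expression in B cells. It called none of the 10 genes. By limma-trend on the deposited log2 values, with Benjamini-Hochberg adjustment over all 12617 genes tested and a threshold of 0.05, it called 0 of all genes (0%). At an unadjusted p under 0.05 there were 280 genes, and limma-voom also called 0, with 186 unadjusted. The largest differences among the 10 genes were -1.75 for Nfatc2 (SE 1.55, limma adjusted p = 0.727), -1.40 for Orai1 (SE 0.673, limma adjusted p = 0.726) and -1.35 for Nfatc1 (SE 0.987, limma adjusted p = 0.726). Orai1 was the 1 gene of the 10 for which both overexpression-labelled libraries lay on the same side of both wildtype libraries, a pattern shown by 42.6% of all genes tested. The sign of this comparison rested on which overexpression-labelled library was kept for Itpr2, Itpr3, Ryr2, Stim1, Nfatc1 and Nfatc2, as their separate values below show.

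With overexpression-labelled library 1 alone against wildtype, 6 of the 10 genes fell, 1 rose and 3 did not pass. Those that fell were Itpr1, Itpr2, Itpr3, Orai1, Nfatc1 and Nfatc2, and the gene that rose was Ryr2. The same comparison called 35.9% of all 11981 genes tested lower and 27.7% higher, so most genes of the table moved too. The median difference of the 10 genes was -0.89 log2 units, beside -0.13 over all genes tested. With overexpression-labelled library 2 alone, 1 of the 10 genes fell, Ryr2, and none rose. That comparison called 1.06% of 12521 genes lower and 0.982% higher, and the median difference was 0.00 for the 10 genes and 0.01 for all genes. Both single-library comparisons use the same wildtype pair, and each lone library is assumed to vary as that pair does. All 10 genes passed the filter on low reads in each comparison. That filter asks for enough reads in at least 2 libraries of the fit. A gene with few reads in the lone library only was thus tested, while a gene with enough reads in the lone library only was left out. Mrvi1 was left out of the library 1 comparison in this way, with 60 reads there against 3 and 9 reads in the wildtype libraries. The shares called lower and higher therefore do not weigh falls and rises alike. Without that filter no gene of the table was called in either single-library comparison, and the 7 genes called in library 1 had limma adjusted p-values of 0.0543 to 0.119.

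**Figure D2:**
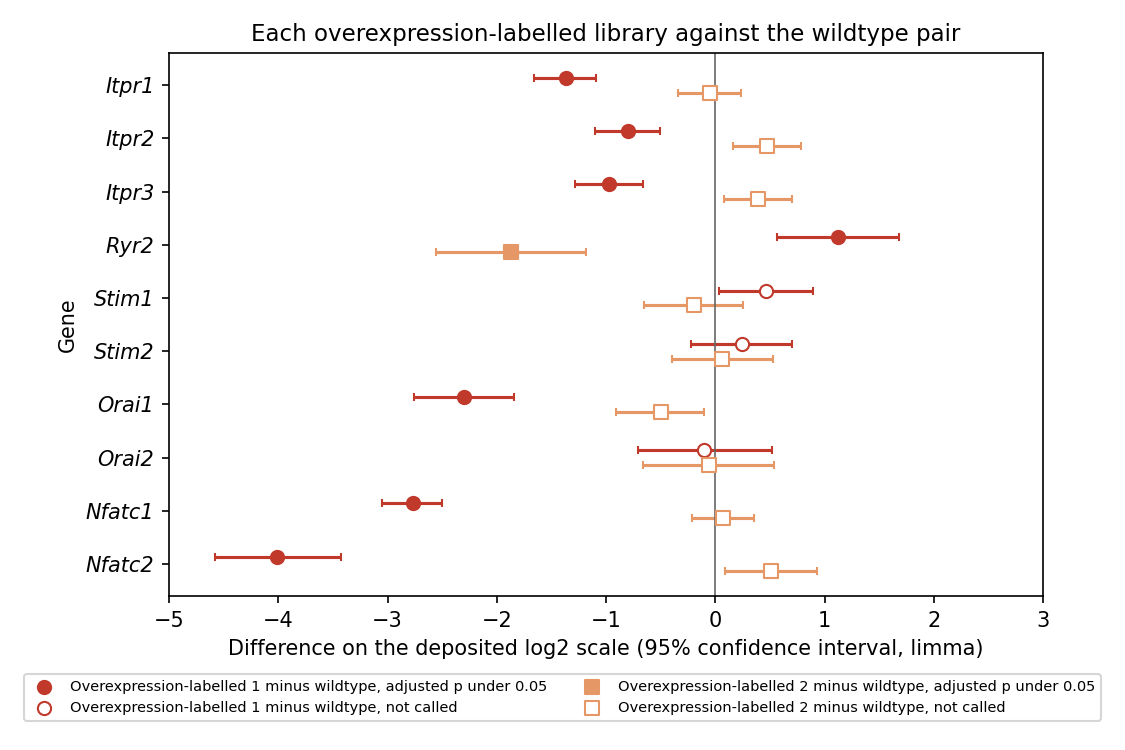
Difference of each overexpression-labelled library from the wildtype mean on the deposited log2 scale, with 95% confidence intervals from limma; filled points have an adjusted p under 0.05. For library 1 the points of Nfatc2 (-4.01), Nfatc1 (-2.77) and Orai1 (-2.30) lie farthest left, and Ryr2 is filled on both sides of zero, at 1.12 for library 1 and -1.87 for library 2.

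Set directly against each other, the overexpression-labelled libraries differed in 8 of the 10 genes. Ryr2 and Stim1 were higher in library 1, where 22.4% of all genes were called higher, and Itpr1, Itpr2, Itpr3, Orai1, Nfatc1 and Nfatc2 were lower, where 30.1% were called lower. The median of the 10 differences was -1.30 log2 units, beside -0.14 over all 12617 genes. Stim2 differed by 0.18 (95% interval -0.35 to 0.71, limma adjusted p = 0.565) and Orai2 by -0.04 (95% interval -0.73 to 0.66, limma adjusted p = 0.933).

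The inositol trisphosphate receptors were all lower in overexpression-labelled library 1 than in wildtype, by 1.76 to 2.62 times in normalised reads. Itpr1 (ENSMUSG00000030102.11, chr6:108213096-108551109, plus strand, GRCm38) encodes the first of these channels. It had 1539 and 4624 reads in overexpression-labelled libraries 1 and 2, against 4568 and 3552 reads in the wildtype libraries, or 5.5 and 12.4 RPKM against 12.4 and 13.7 RPKM. Library 1 was low, and library 2 lay with the wildtype pair. The difference from wildtype was -1.37 log2 units for library 1 (SE 0.133, limma adjusted p = 2.47e-07) and -0.05 for library 2 (95% interval -0.34 to 0.23, limma adjusted p = 0.884). As these are sorted cells measured in bulk, fewer cells of a type and less RNA per cell cannot be told apart.

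Itpr2 (ENSMUSG00000030287.15, chr6:146108299-146502223, minus strand) was the most abundant of the 3 receptor genes in every library. It had 3591 and 10404 reads in the overexpression-labelled libraries, against 6648 and 5946 reads in the wildtype libraries, or 15.9 and 34.5 RPKM against 22.3 and 28.3 RPKM. Here the wildtype libraries lay between the overexpression-labelled ones. Library 1 was lower than wildtype (difference -0.80, SE 0.14, limma adjusted p = 0.000124), while library 2 had a difference of 0.47 (95% interval 0.16 to 0.78, limma adjusted p = 0.116) and did not pass.

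Itpr3 (ENSMUSG00000042644.9, chr17:27057304-27122223, plus strand) showed the same order of libraries. It had 1205 and 3729 reads in the overexpression-labelled libraries, against 2632 and 2156 reads in the wildtype libraries, or 8.74 and 20.3 RPKM against 14.5 and 16.8 RPKM. The difference was -0.97 for library 1 (SE 0.146, limma adjusted p = 3.06e-05) and 0.39 for library 2 (95% interval 0.08 to 0.70, limma adjusted p = 0.193). Library 1 minus library 2 was -1.32 for Itpr1, -1.28 for Itpr2 and -1.36 for Itpr3 (SE 0.154 to 0.168, limma adjusted p from 1.43e-05 to 3.53e-05). An antisense gene, Itpr3os, shares 2.58% of the annotated exon bases of Itpr3, and the sources used here do not state whether reads were counted by strand, so reads in that stretch cannot be told apart.

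Within the receptor family, the share of Itpr1 was lower in both overexpression-labelled libraries. Itpr1 made up 24.3% and 24.7% of the reads of the 3 receptor genes in the overexpression-labelled libraries, against 33% and 30.5% in the wildtype libraries. The exact 95% binomial intervals were 23.2 to 25.4% and 24 to 25.3% in the overexpression-labelled libraries and 32.2 to 33.8% and 29.6 to 31.3% in the wildtype libraries, so the groups did not overlap, as was so for the levels of 42.6% of all genes tested. Itpr2 took 56.7% and 55.5% in the overexpression-labelled libraries, against 48% and 51% in the wildtype libraries, and Itpr3 between 18.5% and 19.9% in all 4. Such shares need no scaling between libraries, and their intervals cover counting error only. An exact two-sided permutation test of 2 libraries against 2 gave p = 0.333 for the Itpr1 share, the smallest that this design allows.

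Ryr2 was the 1 gene of the 10 that differed from wildtype in both overexpression-labelled libraries, and in opposite directions. Ryr2 (ENSMUSG00000021313.16, chr13:11553102-12106945, minus strand) encodes the ryanodine receptor best known from heart muscle, a calcium release channel of the endoplasmic reticulum that calcium itself opens. It had 411 and 38 reads in the overexpression-labelled libraries, against 204 and 151 reads in the wildtype libraries, or 0.934 and 0.0648 RPKM against 0.352 and 0.369 RPKM. Library 1 was the highest of the 4 and library 2 the lowest, with the wildtype pair close together between them. The exact 95% Poisson interval of the 38 reads was 26.9 to 52.2. In library 1 Ryr2 was 2.34-fold higher than in wildtype (1.12 log2 units, SE 0.264, limma adjusted p = 0.00162), and in library 2 wildtype was 5.51-fold higher (difference -1.87, SE 0.322, limma adjusted p = 0.00844). Between the overexpression-labelled libraries the difference was 2.99 (SE 0.335, limma adjusted p = 1.03e-05), with 12.9 times as many normalised reads in library 1. With recomputed size factors the library 2 difference was -1.86 (SE 0.306) and just missed the threshold (limma adjusted p = 0.0509).

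The promoter of Ryr2 is printed because this gene rose in library 1 where 6 others fell; it runs from 250 bases before to 50 bases after the start (chr13:12106896-12107195, minus strand, RefSeq, GRCm38.p6). Promoters of 8 of the 10 genes were matched by symbol in the RefSeq table, 9 sequences in all, because Nfatc2 has 2. Each was searched on both strands for GGAAA, the core letters bound by NFAT factors, which 61.3% of all 32851 promoters of this length hold. Matches are in capitals here and below, and the Ryr2 promoter has none.
Ryr2: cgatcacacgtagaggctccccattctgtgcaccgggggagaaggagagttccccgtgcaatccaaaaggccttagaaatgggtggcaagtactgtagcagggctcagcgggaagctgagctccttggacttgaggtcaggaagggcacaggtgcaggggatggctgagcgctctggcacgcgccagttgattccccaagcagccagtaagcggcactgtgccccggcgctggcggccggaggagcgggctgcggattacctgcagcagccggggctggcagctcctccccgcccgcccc

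The other ryanodine receptor genes did not share this pattern. Ryr1, the skeletal muscle form, had 3 and 123 reads in the overexpression-labelled libraries, against 156 and 106 reads in the wildtype libraries (library 1 difference -2.86, limma adjusted p = 5.49e-06; library 2 difference -0.26, limma adjusted p = 0.725). Ryr3 had 2 and 46 reads in the overexpression-labelled libraries, against 34 and 22 in the wildtype libraries (library 1 difference -1.37, limma adjusted p = 0.00525; library 2 difference 0.31, limma adjusted p = 0.749). Ryr1 and Ryr3 were thus low in library 1, where Ryr2 was high. Exons of Ryr3 overlap those of the gene Aven on the other strand over 4.827% of their bases, and those of Ryr1 overlap the antisense gene Gm26604 over 3.956%.

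The store sensors Stim1 and Stim2 did not pass in either library against wildtype. Stim1 (ENSMUSG00000030987.5, chr7:102267806-102437319, plus strand) had 612 and 452 reads in the overexpression-labelled libraries, against 514 and 374 reads in the wildtype libraries. These came to 3.86 and 2.14 RPKM against 2.46 and 2.54 RPKM, with library 1 the highest and library 2 the lowest. The difference was 0.46 for library 1 (95% interval 0.03 to 0.89, limma adjusted p = 0.0582) and -0.20 for library 2 (95% interval -0.65 to 0.25, limma adjusted p = 0.692). Under 3 other scalings of the libraries, the library 1 difference of Stim1 was 0.57 to 0.65 and passed (limma adjusted p = 0.0133 to 0.0248). Between the overexpression-labelled libraries Stim1 differed by 0.65 (SE 0.233, limma adjusted p = 0.0311).

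Stim2 (ENSMUSG00000039156.19, chr5:53998499-54121057, plus strand), which responds to smaller drops of the store than Stim1, had 496 and 519 reads in the overexpression-labelled libraries, against 533 and 324 reads in the wildtype libraries. In RPKM these were 6.32 and 4.97 against 5.15 and 4.45, so the groups overlapped. The differences were 0.24 (95% interval -0.22 to 0.70, limma adjusted p = 0.341) for library 1 and 0.06 (95% interval -0.40 to 0.53, limma adjusted p = 0.919) for library 2. Stim1 took 55.2% and 46.5% of the reads of the pair in the overexpression-labelled libraries, against 49.1% and 53.6% in the wildtype libraries, and the groups overlapped.

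Orai1, the pore subunit of the main store-operated channel of lymphocytes, was lowest in overexpression-labelled library 1. Orai1 (ENSMUSG00000049686.14, chr5:123015074-123030456, plus strand) had 132 and 619 reads in the overexpression-labelled libraries, against 951 and 587 reads in the wildtype libraries. In RPKM these were 3.76 and 13.2 against 20.6 and 18, and both overexpression-labelled libraries lay below both wildtype ones. In normalised reads, wildtype was 5.68-fold higher than library 1 (difference -2.30, SE 0.217, limma adjusted p = 1.87e-07) and 1.44-fold higher than library 2 (difference -0.50, 95% interval -0.91 to -0.10, limma adjusted p = 0.203). The second of these did not pass. Library 1 lay below library 2 (difference -1.80, SE 0.242, limma adjusted p = 4.98e-05). The Orai1 promoter (chr5:123014824-123015123, plus strand, RefSeq, GRCm38.p6) is shown as that of the ORAI gene that fell, and it has no GGAAA on either strand.
Orai1: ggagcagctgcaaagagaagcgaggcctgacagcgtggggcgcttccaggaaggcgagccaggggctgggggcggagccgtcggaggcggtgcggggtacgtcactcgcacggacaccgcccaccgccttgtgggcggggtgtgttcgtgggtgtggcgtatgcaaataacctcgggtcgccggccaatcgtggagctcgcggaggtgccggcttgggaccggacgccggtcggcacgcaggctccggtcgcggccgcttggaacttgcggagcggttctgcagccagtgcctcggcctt

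Orai2, a related subunit, did not follow Orai1. Orai2 (ENSMUSG00000039747.11, chr5:136147459-136170713, minus strand) had 172 and 211 reads in the overexpression-labelled libraries, against 237 and 145 reads in the wildtype libraries, or 1.85 and 1.71 RPKM against 1.94 and 1.68 RPKM. All 4 values lay close together. The differences were -0.10 (95% interval -0.71 to 0.52, limma adjusted p = 0.787) for library 1 and -0.06 (95% interval -0.66 to 0.54, limma adjusted p = 0.945) for library 2, and the first was 0.00 to 0.08 under 3 other scalings. Orai3, the remaining family gene, had 134 and 189 reads in the overexpression-labelled libraries, against 126 and 85 reads in the wildtype libraries (library 1 difference 0.31, limma adjusted p = 0.424; library 2 difference 0.52, limma adjusted p = 0.447).

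The make-up of the ORAI family differed between libraries. Orai1 took 30.1% and 60.7% of the reads of the 3 ORAI genes in the overexpression-labelled libraries, with exact 95% intervals of 25.9 to 34.7% and 57.7 to 63.8%. In the wildtype libraries it took 72.4% and 71.8%, with intervals of 69.9 to 74.8% and 68.6 to 74.9%. Orai3 took 30.6% and 18.5% in the overexpression-labelled libraries, against 9.59% and 10.4% in the wildtype libraries. Orai2 took 39.3% and 20.7% in the overexpression-labelled libraries, against 18% and 17.7% in the wildtype libraries. The 3 shares sum to the whole and are not separate results: the share of Orai2 was higher in the overexpression-labelled libraries although its own level did not pass in either. The exact two-sided permutation p of the Orai1 share was 0.333, the smallest possible with 2 libraries against 2, and 42.6% of all genes tested had both overexpression-labelled libraries on one side of both wildtype libraries.

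**Figure D3:**
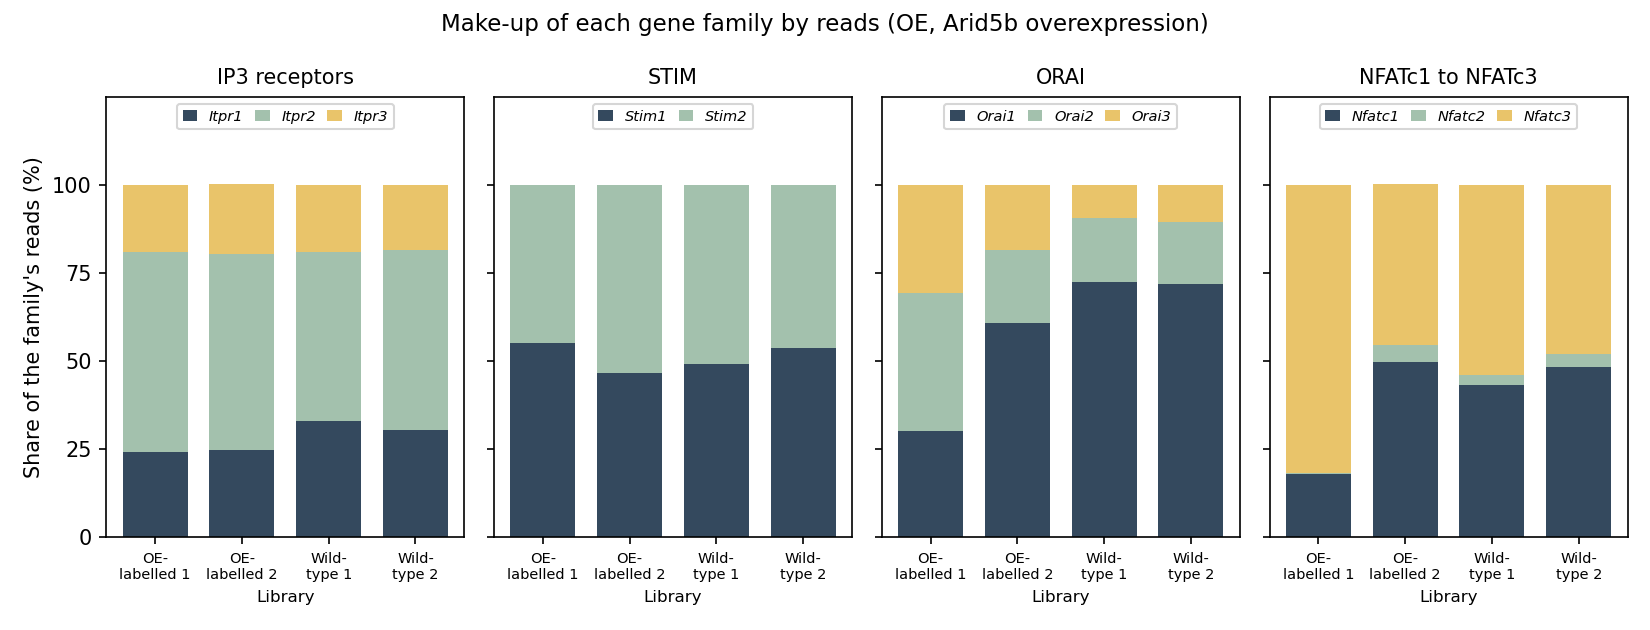
Share of each gene in the reads of its family (percent) for the inositol trisphosphate receptors, STIM, ORAI and NFATc1 to NFATc3, with 1 stacked bar per library. The Orai1 segment is 30.1% and 60.7% in the overexpression-labelled libraries and 72.4% and 71.8% in the wildtype libraries, and the Nfatc3 segment fills 81.9% of the bar of overexpression-labelled library 1.

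The NFAT factors showed the largest changes of the 10 genes, in overexpression-labelled library 1. Nfatc1 (ENSMUSG00000033016.16, chr18:80606205-80713071, minus strand), a factor that calcineurin activates, had 1289 and 11219 reads in the overexpression-labelled libraries, against 9890 and 8115 reads in the wildtype libraries. In RPKM these were 11.3 and 73.8 against 65.7 and 76.5. Library 1 was low, and library 2 lay between the wildtype libraries. Wildtype was 6.97-fold higher than library 1 (difference -2.77, SE 0.13, limma adjusted p = 4.36e-11), and the library 2 difference was 0.07 (95% interval -0.21 to 0.35, limma adjusted p = 0.832). Library 1 lay below library 2 (difference -2.84, SE 0.15, limma adjusted p = 9.67e-09).

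Nfatc2 (ENSMUSG00000027544.16, chr2:168476410-168601657, minus strand), another calcineurin-activated factor, had few reads in library 1. It had 20 and 1121 reads in the overexpression-labelled libraries, against 678 and 626 reads in the wildtype libraries, or 0.124 and 5.21 RPKM against 3.18 and 4.17 RPKM. The exact 95% Poisson interval of the 20 reads was 12.2 to 30.9. Library 1 was the lowest and library 2 the highest of the 4. Wildtype was 32.8-fold higher than library 1 in normalised reads (difference -4.01, SE 0.271, limma adjusted p = 3.4e-09). Library 2 was 1.43-fold above wildtype (difference 0.51, 95% interval 0.09 to 0.93, limma adjusted p = 0.205) and did not pass. Between the overexpression-labelled libraries the difference was -4.52 (SE 0.273, limma adjusted p = 3.35e-08), with 47.1 times as many normalised reads in library 2.

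Both promoters of Nfatc2 are shown as those of the gene that changed most. In the RefSeq table (GRCm38.p6) they lie at chr2:168601608-168601907 and chr2:168590316-168590615 on the minus strand, with GGAAA or its complement TTTCC in capitals. The upstream promoter holds 3 matches and the downstream promoter 1, and among the promoters of the other 7 matched genes only that of Orai2 holds one. AATAC and AATAT, core letters reported for Arid5b binding, were searched for on both strands, and they occur in 39.7% of all promoters and in 0 of these 9. GC content was 62 to 78.7% in the 9 promoters, beside a median of 52.7% over all promoters. A match to so short a motif is a description of letters, not of binding.
Nfatc2 upstream: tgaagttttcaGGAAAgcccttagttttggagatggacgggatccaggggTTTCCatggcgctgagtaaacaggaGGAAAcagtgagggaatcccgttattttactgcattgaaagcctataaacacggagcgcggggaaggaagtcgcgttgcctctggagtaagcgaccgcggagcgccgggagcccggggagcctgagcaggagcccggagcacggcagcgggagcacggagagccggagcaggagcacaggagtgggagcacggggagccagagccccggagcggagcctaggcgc
Nfatc2 downstream: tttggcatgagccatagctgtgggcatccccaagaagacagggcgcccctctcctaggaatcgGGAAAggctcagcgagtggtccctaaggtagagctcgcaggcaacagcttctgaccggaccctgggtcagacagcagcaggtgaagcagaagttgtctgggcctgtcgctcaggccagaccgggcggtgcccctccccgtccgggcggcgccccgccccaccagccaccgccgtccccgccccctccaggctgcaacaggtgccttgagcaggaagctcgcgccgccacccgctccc

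The other NFAT genes fell less in library 1. Nfatc3, also activated by calcineurin, had 5927 and 10286 reads in the overexpression-labelled libraries, against 12368 and 8055 reads in the wildtype libraries (library 1 difference -0.75, SE 0.124, limma adjusted p = 7.41e-05; library 2 difference -0.21, limma adjusted p = 0.455). Nfat5, which responds to osmotic stress and not to calcineurin, had 2382 and 9218 reads in the overexpression-labelled libraries, against 6677 and 5358 reads in the wildtype libraries (library 1 difference -1.32, SE 0.129, limma adjusted p = 2.79e-07; library 2 difference 0.37, limma adjusted p = 0.176). Nfatc4 had 0 reads in all 4 libraries. Among the reads of Nfatc1, Nfatc2 and Nfatc3, Nfatc3 took 81.9% and 45.5% in the overexpression-labelled libraries, against 53.9% and 48% in the wildtype libraries. Nfatc2 took 0.276% of them in library 1 (exact 95% interval 0.169 to 0.427%) and 4.95% in library 2, against 2.96% and 3.73% in the wildtype libraries.

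Markers of other cell types moved with the libraries. In overexpression-labelled library 1, the lower calcium and NFAT genes stood beside a plasmacytoid dendritic cell marker sum of 201 CPM. Library 2 had 601 CPM, and the wildtype libraries had 723 and 608 CPM. Tcf4 (2319 reads) and Irf8 (588 reads) held most of the library 1 sum. Siglech had 4 reads in library 1 against 1129 and 321 in the wildtype libraries, and Ccr9 12 against 979 and 380. Pacsin1 had 1 against 246 and 171, and Klk1 0 against 149 and 83. Bst2 changed least in library 1 (difference -0.28). The T and NK cell sum was 2.68 and 28.4 CPM in the overexpression-labelled libraries, against 58.5 and 58.7 CPM in the wildtype libraries. In library 1 the median difference of the 10 markers was -2.03, with Cd8a, Thy1, Nkg7 and Gzma at 0 reads, while Klrb1c differed by 0.08. In library 2 the median difference was -0.54, and the markers ran from -1.99 (Gzma) to 0.46 (Cd8a). The B cell markers went both ways in library 1, with 3 of 8 higher, Cd79b (1.10, limma adjusted p = 2.18e-06), Pax5 (0.96, limma adjusted p = 1e-05) and Ebf1 (0.50, limma adjusted p = 0.00177), and 5 lower; in library 2 none passed. Of the 5 lower ones Ms4a1, the gene of the B cell surface protein CD20, fell most and had 149 and 12012 reads in the overexpression-labelled libraries, against 8257 and 8108 reads in the wildtype libraries. The neutrophil sum was 136 and 1469 CPM in the overexpression-labelled libraries, against 7.15 and 101 CPM in the wildtype libraries; 5 of the 9 tested of 11 markers were higher in library 1 (median difference 1.74), where Ryr2 was high, and all 9 were higher in library 2 (median difference 5.07), where Ryr2 was low. The monocyte and macrophage sum was 34.7 and 218 CPM in the overexpression-labelled libraries, against 43.7 and 51 CPM in the wildtype libraries. The high sum of library 2 came from Lyz2, with 4045 reads there against 343 and 477 in the wildtype libraries (difference 2.99). The other tested markers differed by -0.99 (Ccr2) to 0.78 (Cd14) in library 2. In library 1, Adgre1 (-2.87), Ly6c2 (-2.70), Csf1r (-1.40) and Cd14 (-0.52) were lower, Lyz2 differed by -0.09 and Ccr2 by 0.55. Plasma cell markers summed to 898 and 1344 CPM in the overexpression-labelled libraries, against 1116 and 1319 CPM in the wildtype libraries. Irf4 held most of these reads in every library, and its library 1 difference was -0.36. Jchain had 50 reads in library 1 against 2498 and 1994 in the wildtype libraries (difference -4.93). Sdc1 went the other way, with 401 reads against 21 and 58 (difference 2.81). Prdm1 (-1.33) and Xbp1 (-0.95) were also lower in library 1. In library 2 the tested plasma cell markers differed by -0.77 (Xbp1) to 0.52 (Jchain). The erythroid sum (4.96 to 5.56 CPM) and the megakaryocyte and mast cell sum (0.196 to 3.19 CPM) were low in all 4 libraries. The part of these cell types in the results was not tested.

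Other genes of the calcium and NFAT pathway changed in both directions in overexpression-labelled library 1. Few of them passed in library 2, where few of all genes tested passed either, as given above. Over 121 listed genes, 99 were tested in library 1, of which 30 rose and 39 fell, with a median difference of -0.07 beside -0.13 for all genes. In library 2, 102 were tested, of which 3 rose and 1 fell, with a median of -0.01 beside 0.01. For library 1 the shares called over all genes were 27.7% higher and 35.9% lower, as above.

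Genes that make and remove inositol trisphosphate moved both ways in library 1. Of 14 tested, 7 rose and 5 fell, with a median of 0.86, and in library 2 none passed. Impa2, an inositol monophosphatase, rose: it had 518 and 25 reads in the overexpression-labelled libraries, against 11 and 20 reads in the wildtype libraries (library 1 difference 3.87, SE 0.384, limma adjusted p = 3.22e-07). Inpp5a, a phosphatase that removes inositol trisphosphate, fell: it had 69 and 446 reads in the overexpression-labelled libraries, against 511 and 452 reads in the wildtype libraries (library 1 difference -2.44, SE 0.261, limma adjusted p = 7.7e-07).

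Partners of the receptors and of STIM and ORAI were also mixed, with 5 of 16 higher and 4 lower in library 1 at a median of -0.01. Tmco1, a channel protein of the endoplasmic reticulum, had 603 and 164 reads in the overexpression-labelled libraries, against 119 and 107 reads in the wildtype libraries (library 1 difference 2.19, SE 0.283, limma adjusted p = 6.41e-06). Itpripl2 had 400 and 76 reads in the overexpression-labelled libraries, against 50 and 40 reads in the wildtype libraries (library 1 difference 2.64, SE 0.337, limma adjusted p = 5.53e-06). Ahcyl2, related to a protein that binds inositol trisphosphate receptors, was the 1 gene of 17 called in library 2. It had 581 and 1986 reads in the overexpression-labelled libraries, against 608 and 537 reads in the wildtype libraries, with a difference of 0.02 in library 1 (limma adjusted p = 0.932) and 1.50 in library 2 (SE 0.185, limma adjusted p = 0.000963).

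Calcium pumps and exchangers had 5 of 8 tested genes lower and none higher in library 1, with a median of -1.26, and none called in library 2. Atp2a3, the pump SERCA3 that refills the endoplasmic reticulum, had 170 and 2659 reads in the overexpression-labelled libraries, against 2470 and 2105 reads in the wildtype libraries (library 1 difference -3.56, SE 0.171, limma adjusted p = 5.54e-11). Atp2b1, a plasma membrane pump that exports calcium, had 1875 and 8375 reads in the overexpression-labelled libraries, against 9059 and 7204 reads in the wildtype libraries (library 1 difference -2.09, SE 0.127, limma adjusted p = 9.19e-10). Atp2a2, the widely expressed pump SERCA2, did not pass, with a difference of -0.22 in library 1 (limma adjusted p = 0.251).

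Plasma membrane calcium channels other than ORAI had 11 of 16 tested genes lower and 1 higher in library 1, with a median of -1.04. Cacna1e, a voltage-gated channel gene, had 213 and 8158 reads in the overexpression-labelled libraries, against 3035 and 3635 reads in the wildtype libraries. It was low in library 1 (difference -3.81, SE 0.218, limma adjusted p = 4.7e-10) and high in library 2 (difference 1.04, SE 0.212, limma adjusted p = 0.022), the 1 gene of 18 called there. P2rx4, an ATP-gated channel gene, had 41 and 650 reads in the overexpression-labelled libraries, against 590 and 459 reads in the wildtype libraries (library 1 difference -3.08, SE 0.262, limma adjusted p = 5.5e-08).

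Genes of mitochondrial calcium uptake moved both ways, with 4 of 11 higher and 3 lower in library 1, a median of 0.03, and none called in library 2. Vdac1, a pore of the outer mitochondrial membrane, rose to 2036 reads in library 1 and had 701 in library 2, against 737 and 416 reads in the wildtype libraries (library 1 difference 1.83, SE 0.185, limma adjusted p = 3.96e-07). Mcur1, a regulator of the mitochondrial calcium uniporter, fell: it had 214 and 675 reads in the overexpression-labelled libraries, against 819 and 527 reads in the wildtype libraries (library 1 difference -1.51, SE 0.21, limma adjusted p = 1.36e-05).

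Between calcium entry and NFAT, calmodulin, calcineurin and related genes had 7 of 17 higher and 4 lower in library 1, with a median of 0.36. The catalytic subunits of calcineurin went different ways in library 1, with Ppp3ca lower (-0.88, limma adjusted p = 4.55e-05) and Ppp3cb (0.92, limma adjusted p = 9.95e-05) and Ppp3cc (0.39, limma adjusted p = 0.0494) higher. Akap5, which anchors calcineurin, had 12 and 188 reads in the overexpression-labelled libraries, against 212 and 98 reads in the wildtype libraries (library 1 difference -2.36, SE 0.373, limma adjusted p = 4.91e-05). Fkbp1a, the protein through which tacrolimus inhibits calcineurin, had 3497 and 1118 reads in the overexpression-labelled libraries, against 1165 and 753 reads in the wildtype libraries (library 1 difference 1.87, SE 0.152, limma adjusted p = 3.14e-08). Camkk2, a calmodulin-activated kinase, was lower in both: it had 139 and 172 reads in the overexpression-labelled libraries, against 476 and 327 reads in the wildtype libraries. Its difference was -1.36 in library 1 (SE 0.248, limma adjusted p = 0.000192) and -1.31 in library 2 (SE 0.239, limma adjusted p = 0.0123).

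NFAT kinases and partners had 6 of 12 higher and 3 lower in library 1, with a median of 0.40. Csnk1e, a casein kinase gene, had 55 and 389 reads in the overexpression-labelled libraries, against 547 and 341 reads in the wildtype libraries (library 1 difference -2.53, SE 0.269, limma adjusted p = 7.28e-07). Lrrk2, a large kinase, had 517 and 7389 reads in the overexpression-labelled libraries, against 4038 and 3698 reads in the wildtype libraries. It was low in library 1 (difference -2.84, SE 0.158, limma adjusted p = 3.24e-10) and higher in library 2 (difference 0.68, SE 0.151, limma adjusted p = 0.0339). Ppp3ca, Ppp3cb, Ppp3cc and Atp2a2 were picked from the lists after their values were seen.

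**Figure D4:**
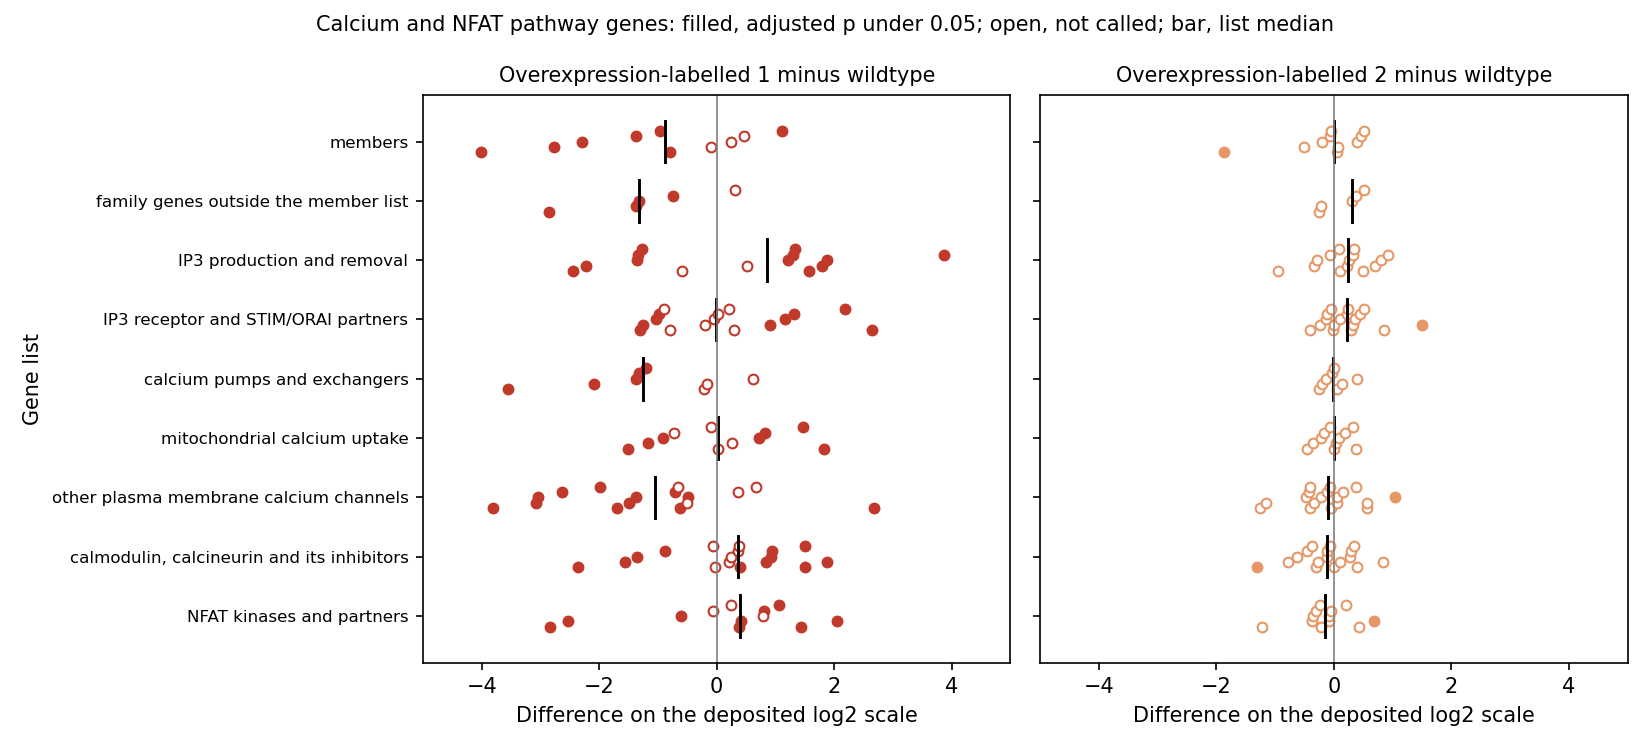
Difference from wildtype on the deposited log2 scale for overexpression-labelled library 1 (left) and library 2 (right), with 1 point per tested gene of the 10 genes described here and of 8 pathway lists; filled points have an adjusted p under 0.05 and bars mark list medians. The left panel spreads from -4.01 to 3.87 with pumps (median -1.26) and other plasma membrane channels (median -1.04) on the low side, and the right panel holds 5 filled points in all.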

How the data were processed

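The authors' tools were STAR, HTSeq and DESeq2 and their genome build was mm10, per the submitters' processing notes; versions and annotation are not given in the sources used here. The deposited values are log2 values in the form of a variance stabilizing transformation with a floor of 4.949 for genes without reads. Inverting it gave whole reads for 100% of the values within 0.01, and the reads, CPM and RPKM in the text are these recovered reads. For overexpression-labelled library 1 the header inside the file and the sample title disagree in 1 digit. RPKM uses the summed exon length of GENCODE M21 (GRCm38), which may not be the authors' annotation.

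Differences are overexpression-labelled minus wildtype on the deposited scale, where changes of genes with few reads are compressed; folds are ratios of normalised reads. Tests are two-sided limma-trend (limma 3.58.1, R 4.3.3), without covariates since the labels give no batch, on genes that, in at least 2 libraries of the fit, reached 10 reads when scaled to the median library size, and 15 reads summed over the fit. In the single-library fits and the comparison of the overexpression-labelled libraries, the spread comes from the wildtype pair. The fit draws the spread of each gene toward a trend over all genes tested, so an SE is not that gene's own wildtype spread. For Ryr2 the wildtype SD on the deposited scale was 0.0237, beside an SE of 0.264 for library 1 against wildtype. Alternatives changed the scaling, the filter, the pseudocount and the test, or left out a library. The libraries held 14196665 to 20356404 reads; the number of libraries limits the precision, and so does counting error for genes with few reads. The 10 genes and the lists of pathway genes and cell type markers were chosen with earlier results of these data known. Named pathway genes are the 2 largest changes per list among called genes with at least 5 CPM on average, for each overexpression-labelled library, and the family genes outside the 10.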

Additional observations from a re-analysis of the deposited data

How the results depend on the processing

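With each library left out in turn, the comparison of both groups called 0 to 7620 genes, and 0 to 7 of the 10 genes described here. It called 1 gene without wildtype library 2, 256 genes (1 of the 10) without overexpression-labelled library 1 and 7620 genes (7 of the 10) without overexpression-labelled library 2. Its differences then ran from -0.80 to 0.47 for Itpr2, -0.97 to 0.39 for Itpr3, -1.87 to 1.12 for Ryr2, -0.20 to 0.46 for Stim1, -0.18 to 0.03 for Orai2, -2.77 to 0.07 for Nfatc1 and -4.01 to 0.51 for Nfatc2. Without the filter on low reads, library 1 against wildtype called 0 genes (8162 at an unadjusted p under 0.05) and 0 of the 10, library 2 called 0 genes (2266 unadjusted) and 0 of the 10, and the comparison of the overexpression-labelled libraries called 2486 genes and 3 of the 10. The smallest adjusted p was then 0.0543 for library 1 and 0.294 for library 2, and the cause was not tested. For library 2 against wildtype, with 256 genes called, recomputed size factors gave 47 genes and 0 of the 10, library totals 400, library totals without Rn45s 123, a log2 scale with a pseudocount of 0.5 gave 138, and limma-voom 445. Under recomputed size factors, library totals and library totals without Rn45s, the median of all genes in library 1 against wildtype moved by 0.10, 0.13 and 0.17. It was then -0.03, 0.00 and 0.05, beside -0.13 on the deposited scale. With totals without Rn45s, more genes were called higher than lower in that comparison, so its excess of lower genes depends on the scaling. The sign of Orai2 turned under these scalings, to 0.00, 0.03 and 0.08 against wildtype and to 0.07, 0.10 and 0.14 against library 2. Over both groups the Orai2 difference was 0.01 with totals without Rn45s. No other sign among the 10 genes turned under a change of scaling, filter, pseudocount or test. No paired analysis was possible because the labels give no replicate numbers shared between the groups. Leaving out a wildtype library leaves the single-library comparisons without a test.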

Other observations

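For the 3 genes of the 10 with the widest range over the libraries, the 3 tested genes with the nearest values were looked up, by Euclidean distance over the 4 libraries between deposited values centred on the wildtype mean, among 12617 genes. Nearest to Nfatc2 were Faah (distance 0.109), Hs3st1 (0.124) and March1 (0.221). Hs3st1, for example, had 12 and 896 reads in the overexpression-labelled libraries, against 580 and 483 reads in the wildtype libraries. Nearest to Nfatc1 were Prox1 (distance 0.0957), Dennd3 (0.133) and Inca1 (0.135). Dennd3 had 97 and 1053 reads in the overexpression-labelled libraries, against 954 and 693 reads in the wildtype libraries. Nearest to Ryr2 were Maml3 (distance 0.363), Ppap2c (0.483) and Nthl1 (0.486). Maml3, like Ryr2, was highest in overexpression-labelled library 1 in normalised value and lowest in library 2, with 593 and 75 reads in the overexpression-labelled libraries, against 411 and 221 reads in the wildtype libraries. Distances on this scale are compressed for genes with few reads, such as Faah with 1 read and Prox1 and Inca1 with 0 reads in overexpression-labelled library 1.

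The wildtype libraries differed from each other by a median of 0.198 log2 units over the 10 genes, with a largest gap of 0.343 for Nfatc2, beside a median of 0.201 over all tested genes.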
